A study of Sus scrofa with 6 samples.

Results

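Keratins and keratin-associated proteins were examined in pig skin as 30 genes among the 14900 mRNAs measured. The study's own gene lists name 27 of them KRT or KRTAP, and 3 further genes without a symbol (ENSSSCG00000025597, ENSSSCG00000033235 and ENSSSCG00000022657) lie inside the keratin cluster of chromosome 5. The members were thus selected on the difference in FPKM between white and black skin, since those lists hold mRNAs by that difference and the portions used here hold almost only mRNAs lower in white skin. The direction of the members' difference between the skins was therefore fixed by the choice, and their values in this contrast are given as a description without a test. The 30 members comprised 26 keratins (11 of type I and 15 of type II) and 4 keratin-associated proteins (KRTAPs). They were set out in 5 groups: 9 keratins of the inner root sheath and companion layer, 11 of the hair cortex and cuticle, 4 KRTAPs, 5 type II epithelial keratins and 1 type I epithelial keratin. The 3 genes without a symbol were put with the type II hair keratins for their position in the cluster, not for a name.

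Skin was taken from 3 unrelated female Bama pigs, 2 years old, a breed that is black at both ends of the body and white between. Each pig gave 1 sample of white skin from the back and 1 of black skin from the buttock, cut to a depth of 8 mm, so there were 3 samples of each skin. White 1 and black 1 are the skins of pig 1, and the samples of pigs 2 and 3 are named in the same way. Coat colour and body site differed together in every pig and cannot be told apart.

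Keratins are the proteins of the intermediate filaments of epithelial cells, and each filament is built from a type I and a type II keratin in pairs. Nearly all genes of type I lie together on 1 chromosome and those of type II on another. A growing hair follicle makes several concentric layers from dividing matrix cells: the hair cortex and its cuticle, the inner root sheath that moulds the shaft, and the companion layer around the sheath. Each layer has its own keratins. KRTAPs are small proteins rich in cysteine or in glycine and tyrosine, and they cross-link the keratin filaments of the hardening shaft. When a follicle stops growing, its matrix, inner root sheath and new cortex are no longer made, while keratins of the epidermis continue.

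Levels are given as FPKM, the fragments mapped to a transcript divided by its length and by the size of the library, so that genes can be set beside each other. The FPKM of all mRNAs summed to between 408598 and 501424 in a sample, and the median mRNA was at 4.46 to 6.7. Over all mRNAs the median log2 difference, white minus black, was -0.31 on the log2(FPKM + 0.5) scale. It was -0.12 after upper-quartile scaling and -0.03 after quantile normalization, so every difference below stands beside a shift of that size. With limma, 539 mRNAs (3.62%) were called lower and 391 (2.62%) higher in white skin, at an adjusted p under 0.05 and an absolute log2 difference above 1. Upper-quartile scaling turned this split to 281 lower and 571 higher. The 6 samples are bulk skin, in which fewer cells of a kind and less RNA per cell cannot be told apart. Marker genes of some other skin cells also differed between the skins: melanocyte markers (11 of 12 found) summed to 14.6 to 15 FPKM in white and 48.5 to 191 in black skin, with 6 called lower in white. The 7 adipocyte markers summed to 159 to 561 FPKM in white and 875 to 2064 in black skin, and smooth muscle markers to 3884 to 6149 and 491 to 1536. Fibroblast and endothelial markers also summed higher in every black than in every white sample. Dermal papilla markers (6 of 7 found) overlapped, with sums of 16.4 to 28.3 FPKM in white and 14.7 to 29.9 in black skin. Of these 6, 0 were called lower and 1 higher in white. The part of these marker genes in the keratin values was not tested.

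Black 1 held by far the most keratin RNA and white 2 the least. The 30 members summed to 19576 FPKM in black 1, which was 4.21% of the FPKM of all its mRNAs. Black 2 and black 3 were close to each other at 585 and 598 FPKM, or 0.13% and 0.146%. White 1 and white 3 were also close at 331 and 349.8 FPKM, whereas white 2 held 17.2 FPKM, or 0.00376%. Black 1 lay 33.5-fold above black 2, a gap within black skin far wider than that between black 2 or black 3 and white 1 or white 3. All 30 members had a lower mean in white skin, and their median log2 difference was -2.96. Without black 1 and white 2, samples left out after the values were seen, the median was -0.42 and 19 of the 30 members were lower in white skin. The mean of the members on the log2(FPKM + 0.5) scale was 7.13 in black 1 and -0.56 in white 2, and between 1.82 and 2.60 in the other 4 samples.

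**Figure D1:**
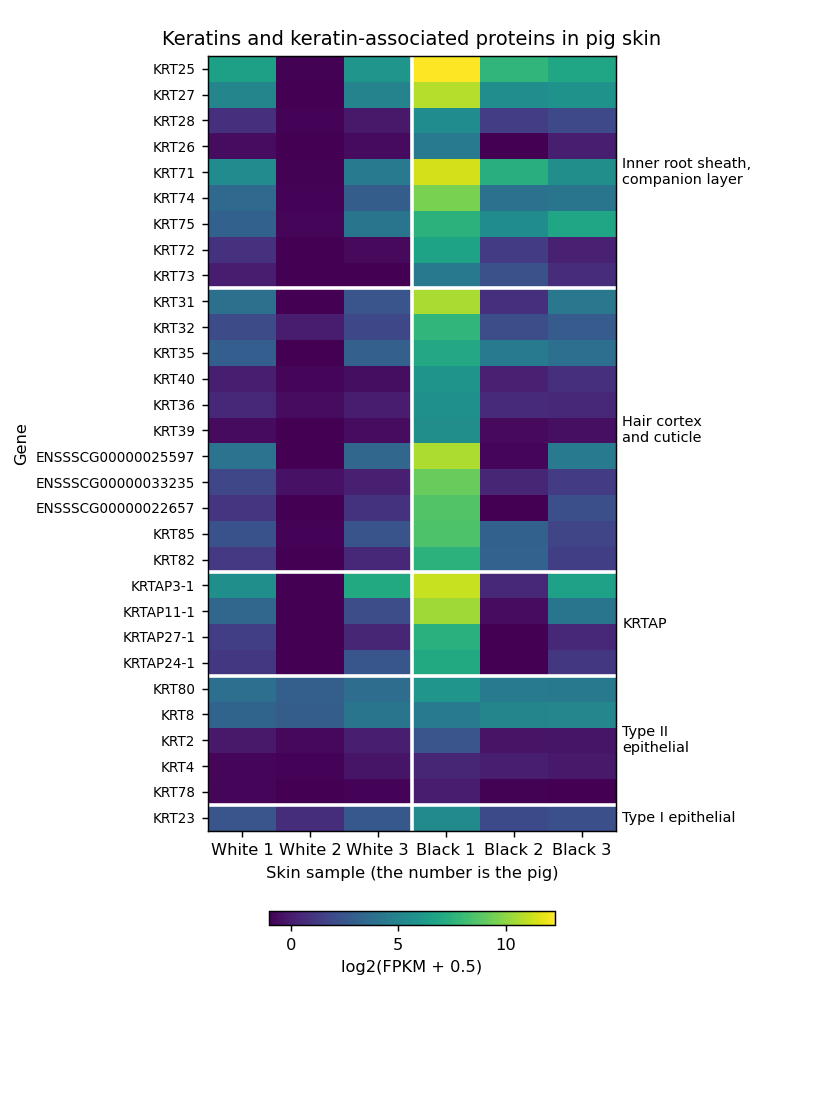
Level of each of the 30 members (rows, in their 5 groups) in each of the 6 skin samples (columns, numbered by pig), colored by log2(FPKM + 0.5). The column of black 1 is the brightest for 29 of the 30 genes, the column of white 2 is the darkest or tied for all 30, and black 2 is bright for inner root sheath keratins but dark for the KRTAPs.

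Keratins of the inner root sheath and companion layer had the highest summed level of the groups in the 3 black samples and in white 1. KRT25, a type I keratin of all inner root sheath layers (chromosome 12, 21703369 to 21709923 on Sscrofa11.1), was at 90.6, 0.0352 and 59.1 FPKM in white 1, 2 and 3. In black 1, 2 and 3 it was at 4866, 209 and 111 FPKM, so that the groups did not overlap, and it alone made up 1.05% of the mRNA FPKM of black 1. Its mean was 49.9 ± 46 FPKM (SD, n = 3) in white and 1729 ± 2718 in black skin, a log2 difference of -5.08 (SE 2.06). KRT71, a type II keratin that forms filaments with type I partners in the same layers, lies on chromosome 5 (17895714 to 17905194). It was at 40.9, 0.0275 and 21.8 FPKM in white 1, 2 and 3 and at 2723, 160.3 and 47 FPKM in black 1, 2 and 3. The groups again did not overlap, and the log2 difference of -5.13 (SE 1.85) was the largest of the 30 members.

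KRT27, another type I sheath keratin, was at 32.3, 0 and 30.2 FPKM in white 1, 2 and 3 and at 1765, 43.8 and 54 FPKM in black 1, 2 and 3. KRT74, a type II keratin of the Huxley layer of the sheath, was at 11.2, 0.0468 and 7.12 FPKM in the white samples and at 768, 14.8 and 17.4 FPKM in the black ones. For both genes black 2 and black 3 lay less than 3-fold above white 1 and white 3, while black 1 was more than 30-fold above the other black samples. KRT28 was at 1.2, 0.0445 and 0.429 FPKM in white and at 42.6, 2.14 and 3.26 FPKM in black skin. Keratins of the cuticle of the sheath were low: KRT72 reached 101 FPKM in black 1, KRT26 reached 21.5 and KRT73 reached 20, and none was above 4.37 FPKM in any other sample. KRT26 was listed at 0 in both skins of pig 2.

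KRT75, the keratin of the companion layer, had another profile. It was at 8.03, 0.0742 and 17.4 FPKM in white 1, 2 and 3 and at 183, 43 and 115 FPKM in black 1, 2 and 3. Black 1 was only 1.6-fold above black 3 and 4.26-fold above black 2, the smallest excess of black 1 in the group. The log2 difference of KRT75 between the skins was -4.45 (SE 1.16). Over the 9 genes of the inner root sheath and companion layer the differences ran from -5.13 to -1.91, with a median of -4.02, and in 7 of the 9 the groups did not overlap. The median was -2.18 without black 1 and -2.65 without white 2. White values lay below black ones without overlap for 25.7% of all mRNAs.

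Keratins of the hair cortex and cuticle were high in black 1 alone. KRT31, a type I keratin of the cortex (chromosome 12, 21209793 to 21213828), was at 14.1, 0 and 5.2 FPKM in white 1, 2 and 3 and at 1507, 1.28 and 19.4 FPKM in black 1, 2 and 3. Black 2 thus lay below white 1 and white 3, and black 3 slightly above them. The mean was 6.43 ± 7.13 FPKM in white and 509 ± 864 FPKM in black skin (SD, n = 3), with a log2 difference of -3.44 (SE 2.26). KRT85, a type II keratin of the matrix, early cortex and cuticle, was at 4.53, 0.0419 and 4.87 FPKM in the white samples. Its black values were 379, 8.11 and 2.9 FPKM, so black 3 lay below white 1 and white 3.

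The 3 genes without a symbol had the same order of black samples as KRT31. ENSSSCG00000025597 overlaps a RefSeq gene at 17624096 to 17631111 of chromosome 5 and was the most abundant hair cortex and cuticle member. It was at 16.2, 0 and 9.77 FPKM in white 1, 2 and 3 and at 1557, 0.0873 and 20.4 FPKM in black 1, 2 and 3. ENSSSCG00000033235 (17571935 to 17580009) was at 3.08, 0.27 and 0.618 FPKM in white and at 571, 0.833 and 2.09 FPKM in black skin. ENSSSCG00000022657 (17608637 to 17614061) was at 1.59, 0 and 1.39 FPKM in white and at 403, 0 and 4.15 FPKM in black skin. In all 3 the level in black 1 was at least 76.3 times that in black 3, and black 2 was near or at 0. The neighbouring gene ENSSSCG00000000239, which has no symbol in the sources used here and is not a member, was higher still at 2429.5 FPKM in black 1. It was at 0.319 and 25.3 FPKM in black 2 and 3 and at 16.9, 0.0655 and 4.59 FPKM in white 1, 2 and 3 (limma, adjusted p = 0.411 over all mRNAs).

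KRT35, a type I keratin that starts in the hair matrix, differed less between the black samples. It was at 7.36, 0 and 7.77 FPKM in white 1, 2 and 3 and at 127, 22.2 and 13.9 FPKM in black 1, 2 and 3, without overlap. KRT82, a type II keratin of the hair cuticle, was at 1.76, 0 and 0.95 FPKM in white and at 183, 8.5 and 2.24 FPKM in black skin, also without overlap. KRT32, a type I keratin of the cuticle, was at 3.53, 0.506 and 3.16 FPKM in white and at 211, 4.01 and 6.65 FPKM in black skin. The remaining hair keratins KRT36, KRT39 and KRT40 reached 50.1, 46.6 and 57.1 FPKM in black 1 and were at most 1.25 FPKM in the 5 other samples. All 11 genes of the group were over 5-fold higher in black 1 than in either other black sample, and 6 were over 50-fold higher than in black 2, beside 1 listed at 0 there. Their log2 differences between the skins ran from -3.81 to -2.20, with a median of -2.96. The skins did not overlap in 5 of the 11, beside 25.7% of all mRNAs with white below black. The median was -0.78 without black 1.

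The 4 KRTAPs were the group with the largest median excess of black 1 over the other black samples. KRTAP3-1 lies beside the type I keratins on chromosome 12 (21456523 to 21457152). It was at 47.9, 0 and 132 FPKM in white 1, 2 and 3 and at 2257, 0.917 and 95.9 FPKM in black 1, 2 and 3. KRTAP11-1 (chromosome 13, 194505660 to 194506576) was at 10, 0 and 3.84 FPKM in white and at 1309, 0.175 and 17.1 FPKM in black skin. In both genes black 2 was near 0 while white 1 and white 3 were not, and for KRTAP3-1 white 3 was also above black 3.

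KRTAP27-1 was at 2.24, 0 and 0.83 FPKM in white and at 167, 0 and 0.923 FPKM in black skin. KRTAP24-1 was at 1.69, 0 and 5.39 FPKM in white and at 131, 0 and 1.71 FPKM in black skin. All 4 KRTAPs were listed at 0 in white 2, and black 2 lay below both white 1 and white 3 in all 4. Black 1 exceeded the mean of the other black samples by 6.97 to 8.57 on the log2 scale, with a median of 7.61. The median log2 difference of the 4 genes between the skins was -2.10, but 0.43 without black 1 and 1.47 without black 1 and white 2. The skins overlapped in all 4, and the direction of the group's median rested on black 1.

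**Figure D2:**
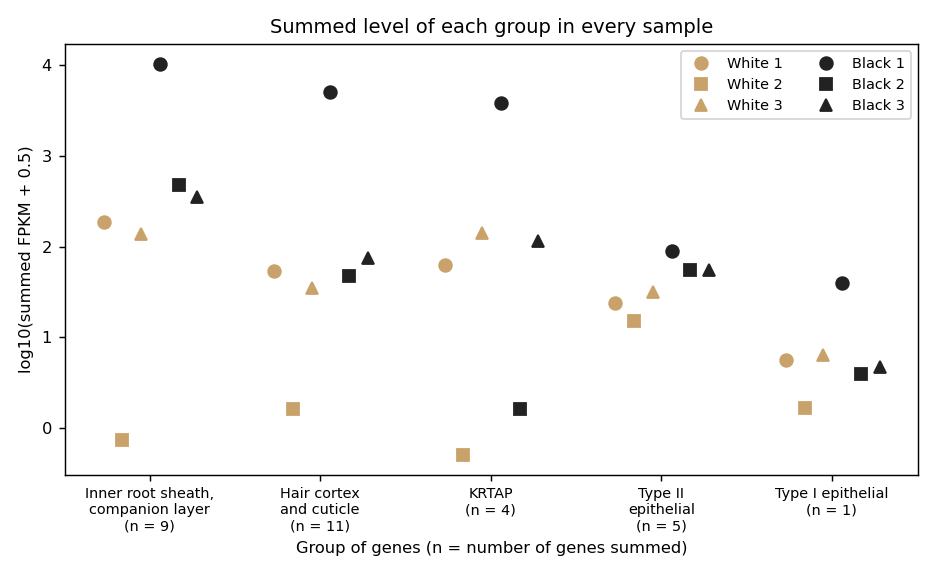
Summed level of each group of members (x axis, with the number of genes summed) in each sample, as log10(summed FPKM + 0.5), with tan points for white and dark points for black skin and the shape marking the pig. Black 1 is at the top of every group, white 2 at the bottom, and black 2 falls from 479 FPKM for the inner root sheath and companion layer to 1.09 FPKM for the KRTAPs.

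Epithelial keratins differed less between samples than those of the follicle on the log2(FPKM + 0.5) scale. KRT80, a type II keratin found in many epithelia (chromosome 5, 17482454 to 17506462), was at 13.9, 7.58 and 13 FPKM in white 1, 2 and 3 and at 60, 20.8 and 19.9 FPKM in black 1, 2 and 3. The groups did not overlap, with a log2 difference of -1.35 (SE 0.45). KRT8, a type II keratin of simple epithelia (chromosome 5, 18172423 to 18180277), was at 9.02, 6.95 and 17.1 FPKM in white and at 22.5, 32.6 and 34.5 FPKM in black skin. KRT8 was the only member with its highest value outside black 1, and its log2 difference was -1.47 (SE 0.35). Its white mean was 11 ± 5.35 FPKM and its black mean 29.9 ± 6.43 FPKM (SD, n = 3).

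KRT2, a keratin of the upper epidermis, was at 0.428, 0.104 and 0.587 FPKM in white 1, 2 and 3 and at 5.14, 0.308 and 0.352 FPKM in black 1, 2 and 3. KRT4, a keratin of mucosal epithelia, did not exceed 0.829 FPKM, and KRT78 did not exceed 0.5 FPKM in any sample. KRT23, the only type I epithelial member, was at 5.11, 1.17 and 5.86 FPKM in white and at 39.2, 3.38 and 4.13 FPKM in black skin. Black 2 and black 3 thus lay below white 1 and white 3 for KRT23, and its log2 difference of -1.20 became 0.49 without black 1 and white 2. The 5 type II epithelial members had a median log2 difference of -0.89, against -4.02 for the inner root sheath and companion layer. With 0.1 in place of 0.5 added to the FPKM the medians were -1.39 and -4.69. Over the 3 type II epithelial members with a mean of at least 1 FPKM the median was -1.35. Low levels of KRT2, KRT4 and KRT78 thus made the median difference of this group smaller.

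Of the 30 members, only KRT8 was called by limma, lower in white skin, beside the 3.62% of all mRNAs that were called lower. With the pig as a block 10 members were called lower, beside 6.42% of all mRNAs: KRT27, KRT28, KRT71, KRT73, KRT74, KRT75, KRT35, KRT82, KRT80 and KRT8. The skins did not overlap in 15 members, with white below black, beside 25.7% of all mRNAs. Because the choice of members used this contrast, nothing is read from these counts.

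The excess of black 1 was not used by the choice as such, although the mean of black skin and with it the choice favors genes high in 1 black sample. All 24 hair follicle members (the inner root sheath and companion layer, cortex and cuticle, and KRTAP groups) were highest in black 1, and 22 were over 5-fold above black 2 and black 3. Of all 30 members, 29 were highest in black 1 and 25 were over 5-fold above, the epithelial members KRT2, KRT78 and KRT23 among them. Over all mRNAs 14.1% were highest in black 1 and 1.63% were also over 5-fold above the other black samples. Since the choice favors genes high in 1 black sample, nothing is read from these counts of members. The median excess of black 1 on the log2 scale was 4.96 in the inner root sheath and companion layer, 6.11 in the cortex and cuticle and 7.61 in the KRTAPs. It was 0.95 in the type II epithelial keratins, 3.23 in KRT23, the only type I epithelial member, and -0.18 over all mRNAs. The 0.95 is the value of KRT78, which did not exceed 0.5 FPKM, so the added 0.5 limits it. With 0.1 added instead, the type II epithelial median was 1.55. The excess was 2.77 for KRT2, 1.54 for KRT80, 0.42 for KRT4 and -0.56 for KRT8. At the other end, white 2 was the lowest or tied for all 30 members, beside 29.8% of all mRNAs, and 15 members were listed at 0 there. The choice also favors genes low in a white sample, so nothing is read from that count. All 24 hair follicle members were under 1 FPKM in white 2.

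Within a pig the difference between the skins varied in size. In pig 1 all 30 members were lower in white skin, with a median log2 difference of -5.74. In pig 2, 26 were lower and 4 were listed at 0 in both skins, with a median of -1.45. In pig 3, 24 were lower and 6 higher in white skin, with a median of -0.89. The 6 were KRT85, KRTAP3-1, KRTAP24-1, KRT2, KRT78 and KRT23.

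The groups divided the pigs further. The median difference of the inner root sheath and companion layer was -5.74, -4.80 and -1.09 in pigs 1, 2 and 3. For the cortex and cuticle it was -6.24, -1.18 and -0.97, and for the KRTAPs -5.92, -0.22 and 0.18. Pig 2 thus had a wide difference between its skins in the sheath keratins and hardly any in the KRTAPs, since both its skins were near 0 for the latter. Pig 3 had the smallest differences in all 3 hair follicle groups.

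**Figure D3:**
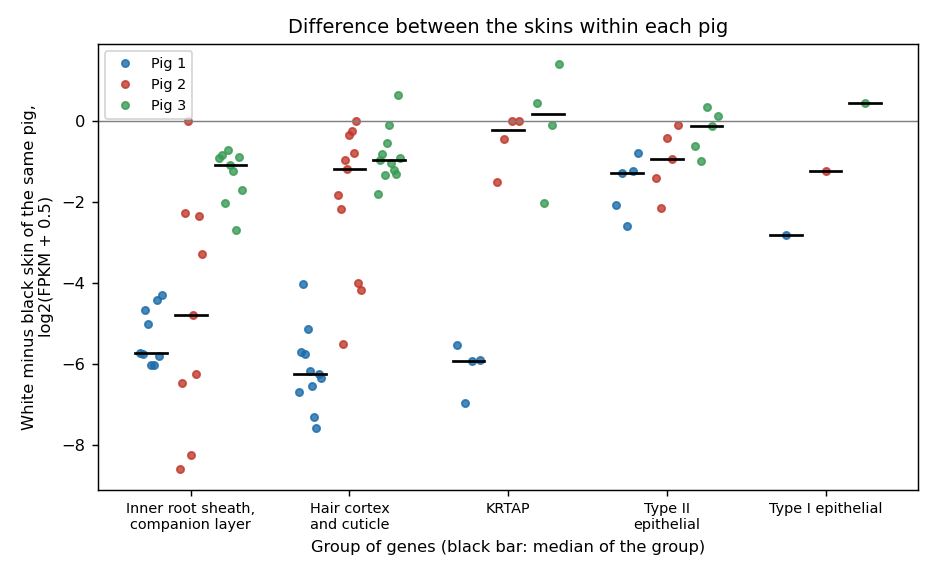
Difference between the white and the black skin of the same pig, on the log2(FPKM + 0.5) scale (y axis), for every member (points) by group (x axis), with a bar at the median. In every group the median of pig 1 is furthest below 0 and that of pig 3 is nearest to it, and pig 2 runs from a median of -4.80 for the inner root sheath and companion layer to -0.22 for the KRTAPs.

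The mixture of follicle keratins in a sample does not depend on how libraries are scaled. Summed FPKM of the inner root sheath and companion layer were 186, 0.228 and 136 in white 1, 2 and 3 and 10490.5, 479 and 349 in black 1, 2 and 3. Those of the cortex and cuticle were 53.8, 1.09 and 34.6 in white and 5092, 46.8 and 74.2 in black skin. The ratio of the former to the latter was 3.47 and 3.94 in white 1 and white 3, 2.06 in black 1, 4.71 in black 3 and 10.2 in black 2. White 2, at 0.209, had too little of either for the ratio to be read.

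KRTAPs set black 2 apart more sharply. Their sums were 61.9, 0 and 142 FPKM in white 1, 2 and 3 and 3865, 1.09 and 116 FPKM in black 1, 2 and 3. The ratio of inner root sheath and companion layer to KRTAP was 439 in black 2 and between 0.96 and 3.02 in white 1, white 3, black 1 and black 3. Black 2 therefore held more sheath keratin RNA than any white sample or black 3 but the least KRTAP RNA of the 5 samples that had any. Across the 24 hair follicle members the levels of white 1, white 3, black 1 and black 3 correlated at Pearson r of 0.792 to 0.93 with each other, a value across genes, which are not replicates. Black 2 correlated with these 4 at 0.398 to 0.625 and white 2 at -0.127 to -0.0776. In white 2 all 24 genes were under 1 FPKM and 14 were listed at 0, so its correlation is not read as a difference in mixture. Black 1 held 59.2 times the summed member FPKM of white 1, and their profiles correlated at 0.923.

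Type I and type II keratins pair in filaments, and their sums as grouped here lay within about 2.5-fold of each other in every sample. In the inner root sheath and companion layer, type I members (KRT25 to KRT28) summed to 6695 FPKM and type II members (KRT71 to KRT75) to 3795 FPKM in black 1, a ratio of 1.76. The ratio was 2 and 1.94 in white 1 and white 3 and 1.14 and 0.932 in black 2 and black 3. These ratios rest in part on KRT75, the keratin of the companion layer, which had another profile. It made up 115 of the 181 FPKM of type II in black 3 and 17.4 of the 46.4 FPKM in white 3. In black 1 it was 183 of 3795 FPKM. In the cortex and cuticle the ratio of type I to type II was 0.982 and 0.966 in white 1 and white 3. It was 0.646 in black 1, 1.67 in black 2 and 1.33 in black 3. In white 2 the ratios were 0.536 and 2.5, from sums under 1 FPKM. The ratios of the skins overlapped in the cortex and cuticle. In the inner root sheath and companion layer they overlapped only through white 2, since white 1 and white 3 lay above all 3 black samples. The cortex and cuticle ratio depends on the 3 genes without a symbol, put with type II for their position. In the order given above, they held 1557, 571 and 403 of the 3094 FPKM of type II in black 1. They held 0.0873, 0.833 and 0 of 17.5 FPKM in black 2, and 20.4, 2.09 and 4.15 of 31.8 FPKM in black 3. Keratins of these layers that were not members are not in the sums.

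**Figure D4:**
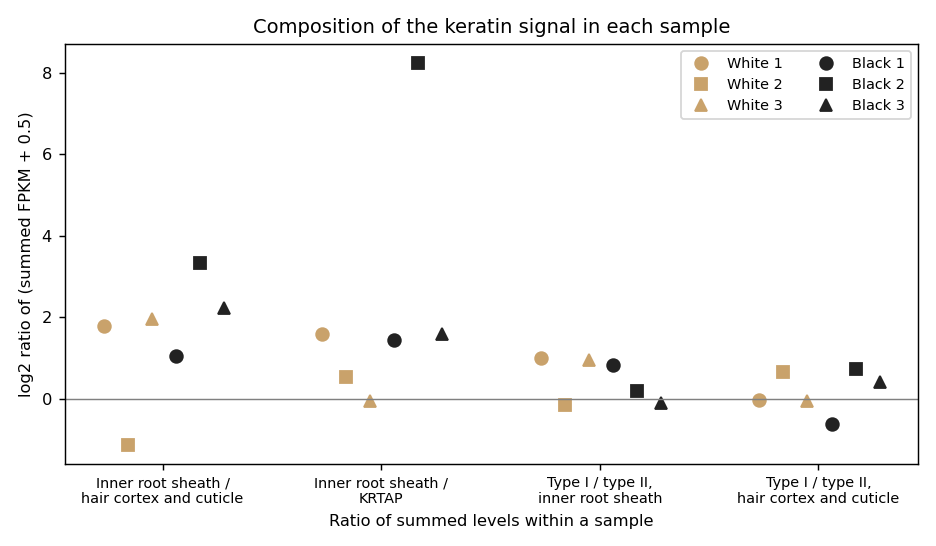
Ratio of summed levels within each sample, as the log2 ratio of (summed FPKM + 0.5) on the y axis, for 4 pairs of groups on the x axis; tan points are white and dark points black skin, and the shape marks the pig. Black 2 stands apart for the inner root sheath and companion layer over KRTAP at 8.24, where white 1, white 3, black 1 and black 3 lie between -0.06 and 1.59. White 2, at 0.54, had 0 FPKM of KRTAP and 0.228 FPKM of the former, so the added 0.5 sets its place. The ratios of type I to type II lie within about 1 of 0.

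Genes of the hair follicle that had no part in the choice were examined from a list of 39 (38 genes that are not keratins, and KRT15), of which 34 were found by name. Of these, 31 had a lower and 3 a higher mean in white skin, with a median log2 difference of -1.43, against 10302 of 14900 and -0.31 over all mRNAs. Only SELENBP1, a selenium-binding protein, passed both thresholds, lower in white skin, beside 3.62% of all mRNAs called lower. It was at 10.4, 7.76 and 15.2 FPKM in white 1, 2 and 3 and at 33.3, 20 and 36.3 FPKM in black 1, 2 and 3, a log2 difference of -1.39 (SE 0.33, limma, adjusted p = 0.046). Its adjusted p ranged from 0.0594 to 0.172 with a sample of either skin left out, so the call needed all 6 samples, and it was 0.0784 after quantile normalization. At an unadjusted p under 0.05 there were 10 of the 34 (29.4%), close to the 28.4% of all mRNAs. With the pig as a block 4 were called lower (SELENBP1, S100A3, FOXE1 and SOX21), beside 6.42% of all mRNAs. Without black 1 and white 2 the median was -0.40 and none was called by limma, with 5 at an unadjusted p under 0.05.

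Of the transcription factors on the list, the 5 named for their part in the hair matrix lay highest in black 1, while CUX1 was highest in white 1, SOX9 in white 2 and LHX2 in black 2. HOXC13, a direct regulator of hair keratin genes, was at 1.07, 0.539 and 2.66 FPKM in white 1, 2 and 3 and at 14.3, 1.92 and 2.06 FPKM in black 1, 2 and 3 (log2 difference -1.38, SE 0.73, limma, adjusted p = 0.248). FOXN1, which is needed for hair keratin production and is lost in nude mice, was at 2.66, 0.366 and 2.01 FPKM in white and at 28.3, 0.962 and 0.927 FPKM in black skin. For both genes the skins overlapped, and black 2 and black 3 lay within the range of the white samples. DLX3, a homeobox factor of the matrix, was at 1.63, 0.095 and 2.28 FPKM in white and at 26.3, 6.82 and 2.74 FPKM in black skin (log2 difference -2.50, SE 0.82, adjusted p = 0.1). MSX2 was at 2.13, 0.919 and 1.9 FPKM in white and at 23.7, 4.07 and 3.36 FPKM in black skin (adjusted p = 0.12). LEF1, which carries the WNT signal in matrix and cortex precursors, was at 3.76, 2.01 and 3.32 FPKM in white and at 17.9, 7.94 and 4.49 FPKM in black skin (adjusted p = 0.104). DLX3, MSX2 and LEF1 did not overlap between the skins, and none of these 5 factors passed the threshold.

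In 4 genes that act on the hardening hair, black 1 was likewise the highest and white 2 the lowest sample. S100A3, a calcium-binding protein of the hair cuticle, was at 76.2, 3.6 and 26 FPKM in white 1, 2 and 3 and at 3925, 22.3 and 89.5 FPKM in black 1, 2 and 3. Its log2 difference was -3.31 (SE 1.80, limma, adjusted p = 0.261), and the adjusted p was 0.0382 with the pig as a block. DSG4, a desmosomal cadherin of the hair shaft, was at 0.565, 0.0405 and 0.321 FPKM in white and at 76.3, 0.515 and 0.287 FPKM in black skin (adjusted p = 0.34). TGM3, a transglutaminase that cross-links hair proteins, was at 2.31, 0.426 and 2.28 FPKM in white and at 59.1, 2.17 and 4.78 FPKM in black skin (adjusted p = 0.197). PADI3, which converts arginine to citrulline in the hair follicle, was at 0.274, 0.0748 and 1.33 FPKM in white and at 36, 2.45 and 0.706 FPKM in black skin (adjusted p = 0.197). Black 1 was at least 10-fold above every other sample in all 4 genes, and black 2 was below white 1 for S100A3, DSG4 and TGM3. Of the 34 genes, 26 were highest in black 1 and 17 were also over 5-fold above the other black samples, beside 14.1% and 1.63% of all mRNAs. White 2 was the lowest or tied for 24 of the 34. TCHH was not analysed here.

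Epidermal genes showed a smaller excess of black 1. Of a list of 49, 36 were found, of which 30 were lower and 6 higher in white skin by the log2 difference, with a median of -0.69. By the mean FPKM, 10 of the 36 were higher in white skin. Black 1 was the highest sample for 16 (44.4%, beside 14.1% of all mRNAs) and over 5-fold above the other black samples for 2 (5.56%, beside 1.63%). The median excess of black 1 was 0.45 on the log2 scale, against -0.18 over all mRNAs. PPL, the cornified envelope protein periplakin, was the only gene called by limma, beside 3.62% of all mRNAs called lower. It was at 19.6, 12.9 and 17.9 FPKM in white 1, 2 and 3 and at 36.9, 40.2 and 38.1 FPKM in black 1, 2 and 3, a log2 difference of -1.19 (SE 0.22, adjusted p = 0.0278). After upper-quartile scaling its log2 difference was -0.96, under the threshold of 1. The call was also lost when any sample but black 1 was left out, with an adjusted p of 0.0594 to 0.118. TP63, the transcription factor of basal keratinocytes, was at 14.2, 14.1 and 26.1 FPKM in white and at 21.8, 15.4 and 18.2 FPKM in black skin, with overlapping groups (log2 difference -0.07, SE 0.29, adjusted p = 0.883). IVL, involucrin of the cornified envelope, was at 5.89, 2.55 and 39.4 FPKM in white and at 343, 6.78 and 13.1 FPKM in black skin (adjusted p = 0.426).

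The family held 8 further keratins that could be named and were not members. Of these 1 was called, beside 2.62% of all mRNAs called higher and 3.62% called lower in white skin. KRT79, a type II keratin of the hair canal and sebaceous duct, was higher in white skin. It was at 391, 515 and 425 FPKM in white 1, 2 and 3 and at 51.3, 53.6 and 23.5 FPKM in black 1, 2 and 3. White skin had 444 ± 64 FPKM and black skin 42.8 ± 16.7 FPKM (SD, n = 3), a ratio of 10.4 and a log2 difference of 3.44 (SE 0.33, limma, adjusted p = 0.00736). Black 1 was not above black 2, and white 2, the lowest sample for the 30 members, was the highest for KRT79. Its adjusted p stayed between 0.00734 and 0.0373 over the other settings and with any 1 sample left out, and was 0.0981 without black 1 and white 2, where the log2 difference was 3.50 and no mRNA was called by limma (2989 at an unadjusted p under 0.05). KRT79 lies at 18108811 to 18119767 of chromosome 5, between the members KRT4 and KRT78, which were under 1 FPKM in every sample.

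Some sebaceous gland markers differed between the skins in the direction of KRT79. Of 8 listed, 7 were found, summing to 6186 to 11644 FPKM in white and 1126 to 1746 FPKM in black skin. Of the 7, 3 were called higher in white, beside 2.62% of all mRNAs, and none was listed at 0 in all samples. MGST1, a microsomal glutathione transferase abundant in sebaceous cells, was at 1007, 1086 and 983 FPKM in white 1, 2 and 3 and at 209.8, 146 and 153 FPKM in black 1, 2 and 3. Its log2 difference was 2.61 (SE 0.22, limma, adjusted p = 0.00563). SCD, the stearoyl-CoA desaturase, was at 1153 ± 285 FPKM in black and 7493 ± 2518 FPKM in white skin (SD, n = 3, adjusted p = 0.0121). PLIN2, a lipid droplet protein, was at 71.2 ± 12.7 FPKM in white and 17.3 ± 4.14 FPKM in black skin (adjusted p = 0.0113). The remaining 4 were not called: FASN was at 312 FPKM on average in white and 145 FPKM in black skin, AWAT2 at 0.88 and 0.357, and PPARG at 18.9 and 17.7. ELOVL3 was lower in white skin on average, at 0.212 FPKM against 8.09 FPKM, through 23.3 FPKM in black 1. The sum is mostly SCD, and the part of these genes in the KRT79 result was not tested.

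The other keratins of the epidermis and of the outer follicle were not called. KRT1, the type II keratin of the spinous epidermis, was at 433, 39.5 and 504 FPKM in white 1, 2 and 3 and at 379, 226 and 196 FPKM in black 1, 2 and 3 (log2 difference -0.32, SE 0.88, limma, adjusted p = 0.82). KRT10, its type I partner, was at 85.9, 3.58 and 105 FPKM in white and at 60.6, 53.6 and 50.3 FPKM in black skin (log2 difference -0.72, SE 1.08, adjusted p = 0.673). White 2 was by far the lowest sample for both, as for the hair follicle members. Black 1 was the highest black sample for both but lay below white 1 and white 3. The 5 keratinocyte markers found, KRT1 and KRT10 among them, summed to 187 FPKM in white 2 and to 458 to 736 FPKM in the other samples. TP63 at 14.1 FPKM in white 2 was close to its level in white 1.

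KRT15, a type I keratin of basal cells and of the follicle bulge, was at 365, 337 and 399 FPKM in white 1, 2 and 3 and at 320.2, 904 and 542 FPKM in black 1, 2 and 3. Black 1 was the lowest and black 2 the highest sample for it, while black 2 was the lowest black sample for the KRTAPs (log2 difference -0.56, SE 0.36, adjusted p = 0.333). KRT18, the type I partner of KRT8, was at 1.88, 2.71 and 15.5 FPKM in white and at 2.89, 8.39 and 12.5 FPKM in black skin (adjusted p = 0.64). KRT7, a simple epithelial keratin, was at 10.7, 19.8 and 47.3 FPKM in white and at 4.71, 49.8 and 31.3 FPKM in black skin (adjusted p = 0.931). For KRT18 and KRT7 the skins overlapped, and black 1 was the lowest black sample. KRT77 did not exceed 2.48 FPKM and KRT84 did not exceed 0.715 FPKM. KRT5 and KRT14 were not analysed here.

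**Figure D5:**
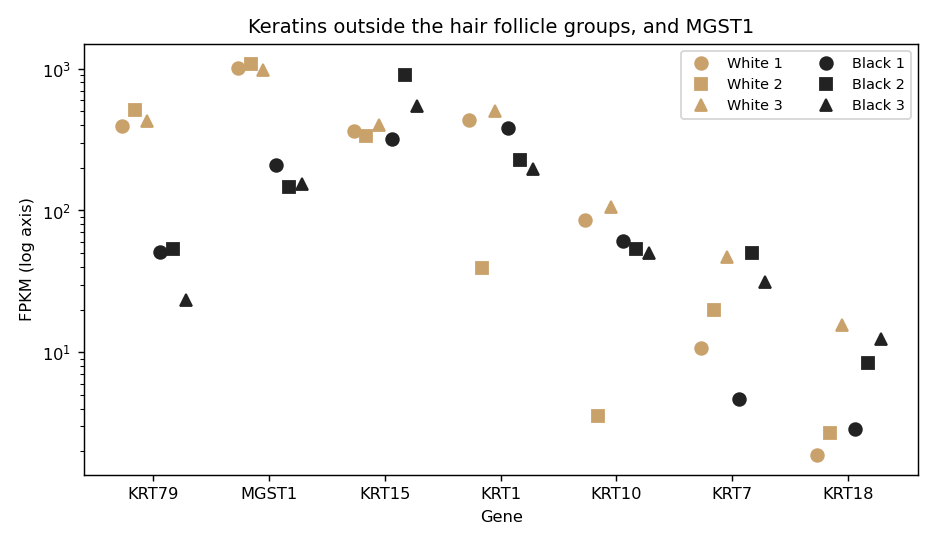
FPKM on a log axis (y axis) of 6 keratins that are not members and of the sebaceous marker MGST1 (x axis) in each sample, with tan points for white and dark points for black skin and the shape marking the pig. The skins are separate for KRT79 and MGST1, both higher in white skin, and overlap for the other 5 genes, with white 2 far below the rest for KRT1 and KRT10.

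The 10 mRNAs whose levels over the 6 samples were most like the mean of the members were sought among 7106 mRNAs that reached 10 FPKM in a sample. By Pearson r on the log2(FPKM + 0.5) scale they were METAP1 (0.997), TGM3 (0.994), VSIG8 (0.993), PSORS1C2 (0.992), LGALS3 (0.989), NCCRP1 (0.988), S100A3 (0.988), LY6G6F (0.988), FAM84A (0.988) and SMC6 (0.986). The measure takes no account of size. VSIG8, a membrane protein of the hair shaft, was at 8.33, 0.358 and 4.57 FPKM in white 1, 2 and 3 and at 642, 9.11 and 8.52 FPKM in black 1, 2 and 3. LY6G6F was at 24.2, 0.181 and 12.8 FPKM in white and at 1254, 10.4 and 18 FPKM in black skin. METAP1, a methionine aminopeptidase, had the highest r but ran only from 6.48 FPKM in white 2 to 14.4 FPKM in black 1. SMC6, of the chromosome maintenance complex, ran from 5.55 to 11 FPKM. TGM3, S100A3, VSIG8 and PSORS1C2 are also on the hair follicle list.

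The members lay in 3 clusters on Sscrofa11.1. Chromosome 5 held 15 members in 698 kb (17482454 to 18180277), chromosome 12 held 12 in 555 kb (21155419 to 21709923) and chromosome 13 held 3 KRTAPs in 877 kb (193629958 to 194506576). The lncRNA file held 17 transcripts inside these spans, of which 10 were highest in black 1 and 8 were also over 5-fold above black 2 and black 3, beside 11.5% of all 7566 lncRNAs. On chromosome 12 it was all 3 and on chromosome 13 all 3, against 2 of 11 on chromosome 5. TCONS_00016557 (chromosome 12, 21271749 to 21272347) was at 0, 0.213 and 5.33 FPKM in white 1, 2 and 3 and at 193, 0 and 0 FPKM in black 1, 2 and 3. It overlaps a RefSeq gene, and its partner transcript TCONS_00016556 shares most of its span, so reads may have been divided between them and that gene. TCONS_00029757 (chromosome 13, 194337505 to 194337693), which overlaps no RefSeq gene, was at 0.16, 0 and 0.371 FPKM in white and at 35.1, 0 and 5.2 FPKM in black skin.

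TCONS_00077733 begins 23788 bases beyond the end of KRT80 on chromosome 5 (17530250 to 17532458, plus strand). It was at 0.129, 0.0758 and 0.21 FPKM in white 1, 2 and 3 and at 2.71, 0.227 and 0.216 FPKM in black 1, 2 and 3, so black 1 alone stood out. Transcripts that overlap KRT6A differed among themselves. TCONS_00080682, on the minus strand, had no excess in black 1. It was at 16.8, 47.6 and 190.4 FPKM in white and at 55.6, 63.8 and 169 FPKM in black skin. TCONS_00080683, TCONS_00077760 and TCONS_00077761 were not highest in black 1 either. TCONS_00080681, also on the minus strand, was highest in black 1 at 31.5 FPKM, against 17.5 and 24.8 FPKM in black 2 and 3. TCONS_00077759 was highest in black 1 as well, at 1.91 FPKM. Their spans overlap, so reads may have been divided between them and KRT6A. KRT6A itself was not analysed here.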

How the data were processed

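The 2 deposited files hold FPKM values of mRNAs and lncRNAs in 6 samples (1 of each skin from 3 pigs), which the authors calculated with StringTie after mapping reads to the pig genome Sscrofa11.1. The submitters' processing notes name CASAVA 1.8.2, HISAT2 2.0.4, StringTie 1.3.3 and Cufflinks 2.2.1, while the study's methods name TopHat as the aligner. The authors kept mRNAs above 0.5 FPKM and lncRNAs above 0.1 FPKM in at least 1 sample. The files give no counts, so depth is unknown and intervals for counting error could not be formed. Keratin and KRTAP genes share sequence with their neighbours, and how reads were divided among them is not given in the sources used here, so levels of close paralogs are uncertain. A gene listed at 0 may be a failed estimate, and no fold value was formed against 0. The counts of genes over 5-fold above black 2 and black 3 do include genes listed at 0 in 1 or both of those samples.

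Groups and pig numbers come from the sample labels. The unit of replication was the pig. The skins were compared by limma 3.58.1 under R 4.3.3 (trend, log2(FPKM + 0.5), Benjamini-Hochberg adjustment over 14900 mRNAs), without the pig as a term, as the study did. The fold changes are on that scale and understate changes of low genes. Same-numbered samples are skins of 1 pig, and their deviations from the group means correlated at 0.208, 0.36 and 0.204 over all mRNAs, so the paired alternative had a block per pig. The script was tested on simulated data. Tables and figures were made with Python 3.11.15, NumPy 2.4.6, pandas 2.3.3 and matplotlib 3.10.9. Names came from the study's lists for 2308 mRNAs and otherwise from an Ensembl to symbol table, 12419 in all (83.3%). Positions are those of the RefSeq gene on Sscrofa11.1 that overlaps each member. Of the 30 members, 28 had a mean of at least 1 FPKM, the low-value filter tried as an alternative. Other alternatives were the pseudocount, upper-quartile and quantile scaling, limma without the trend and leaving out each sample.

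The members, the gene lists and the tests were chosen with earlier results of these data known. All members could be named. Other genes were named from the lists when past both thresholds, from a fixed set (HOXC13, FOXN1, DLX3, MSX2, LEF1, TGM3, PADI3, S100A3, DSG4, KRT1, KRT10, IVL and TP63), as most alike, or as neighbours in the chromosome 5 cluster. The remaining keratins that are not members, the block-only calls FOXE1 and SOX21, and the lncRNAs other than TCONS_00077733 were named after their values were seen.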

Additional observations from a re-analysis of the deposited data

How the results depend on the processing

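Without the pig as a block 1 member was called, and with the replicate block 10 were. The block also moved the count of hair follicle genes from 1 to 4, of epidermal genes from 1 to 2 and of all mRNAs from 930 to 1439, and S100A3 was then called. It left the call of KRT79 as it was. By limma the count of members called was 2 with a pseudocount of 0.1 or 1, and 0 after upper-quartile scaling (9 at an unadjusted p under 0.05), quantile normalization (9) or without the trend (11). It lay between 0 and 1 with a sample left out. For hair follicle genes it was 0 under both scalings and without the trend, with 9, 5 and 10 at an unadjusted p under 0.05, and 0 throughout with a sample left out. For epidermal genes it was 0 after upper-quartile scaling (5 unadjusted) and between 0 and 2 with a sample left out. Over all mRNAs it lay between 35 (without white 2) and 847 (without black 1).

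Leaving out black 1 and white 2 together, chosen after the values were seen, left 4 samples. No mRNA was then called (2989 at an unadjusted p under 0.05), so the counts of members, hair follicle genes, epidermal genes and other keratins were 0 (6, 5, 9 and 3 unadjusted). The median log2 difference of the inner root sheath and companion layer moved from -4.02 to -1.05. With 1 sample left out it lay between -5.00 and -2.18. That of the KRTAPs turned from -2.10 to 1.47, and lay between -4.32 and 0.43 (without black 1) with 1 sample left out. That of KRT23 turned from -1.20 to 0.49, and lay between -1.80 and -0.12 with 1 sample left out. The excess of black 1 in the KRTAPs was 8.65 with a pseudocount of 0.1, against 7.61. Without its most abundant gene the type II epithelial sum was 11.6 FPKM in white and 32.6 FPKM in black skin, against 23.1 and 66.2. The log2 ratio of type I to type II in the inner root sheath of black skin was 0.30, against 1.21 from the median of the members and -0.30 without the most abundant gene of each type. A further 151 values moved by less than the spread between pigs or samples, or counts by under 1.5 times. That spread is wide: the median of the members moved from -2.96 to -0.81 without black 1 and to -0.42 without black 1 and white 2, and that of the cortex and cuticle from -2.96 to -0.78 and -0.06. The causes were not tested.

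The 3 samples of each skin and values without counts limit what can be told apart. Levels near 0 rest on an unknown number of reads.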
